A study of Mus musculus with 24 samples.

Results

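The Slc25 genes encode the mitochondrial carriers, and 37 of them were measured at a usable level in mouse gastrocnemius, the large calf muscle. The members were chosen by name and level: gene models named Slc25a followed by a number, with a mean estimated count of at least 10 over 24 libraries. Of 36172 gene models in the deposited tables, 44 carried such a name and 37 reached that mean. That rule used the level over all libraries and none of the comparisons below, so levels are given as a description and comparisons as tests. The family, gene lists and tests were, however, chosen with earlier results of these data known. Members just inside the threshold were Slc25a45 and Slc25a13, with mean counts of 18 and 18.8, and those just outside were Slc25a43 and Slc25a2, with 1.75 and 1.26. The other gene models left out were Slc25a31, Slc25a48, Slc25a18, Slc25a21 and Slc25a41.

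All mice were C57BL/6 and homozygous for floxed Notch2, the gene of a receptor for contact signals between cells. Notch2-mKO animals (Mlc1fCre/+;Notch2f/f, called mKO here) also carried Cre recombinase driven by Mlc1f, a myosin light chain locus of skeletal muscle fibres, and WT animals (Notch2f/f) carried no Cre. Cells other than fibres would keep Notch2 in both. Each genotype gave 4 diabetic libraries, 4 unloaded libraries and 4 control libraries. Diabetic muscle was taken 14 days after 1 intraperitoneal injection of 150 mg per kg streptozotocin, which destroys the insulin-producing cells, and unloaded muscle after 7 days of hindlimb suspension. The labels give neither age nor sex, and they do not say that replicates are separate animals, so p-values rest on the spread among the samples given, which may be partly technical. Per the series title, the study asked about muscle atrophy in the absence of Notch2.

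Mitochondrial carriers are small proteins of the inner membrane built from repeated units, and most of them swap a metabolite of the matrix for a metabolite of the space outside. In working muscle the adenine nucleotide translocases send ATP out in exchange for ADP, the phosphate carrier brings in phosphate for ATP synthesis, and shuttle carriers bring reducing power and acyl groups to the matrix. Other members move amino acids, nucleotides, cofactors, iron and glutathione, and a few have no agreed substrate. Carrier transcripts therefore report on several sides of mitochondrial metabolism, although transport itself was not measured here.

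Library totals ran between 33112459 and 56369917 estimated counts, and members took 0.399 to 0.528% of a library. Values are given in CPM, the usual depth-scaled unit, after TMM scaling between libraries. At these depths 3 counts correspond to 0.0532 to 0.0906 CPM, and such limits cover counting error only. Among non-zero whole-number values up to 20, 84.1 to 88.8% were even, depending on the library. A count may therefore not stand for 1 independent fragment, which was not tested, and low members may rest on fewer fragments than counts. Of 10 fibre markers, 0 were called higher against controls, and 1 was lower in diabetic mKO, 5 in diabetic WT, 2 in unloaded mKO and 3 in unloaded WT. After correction of every library for GC content and transcript length, 0 were higher and 1, 1, 2 and 2 lower in that order. Before correction the mKO calls were Myh1 in diabetes, and Myh2 and Acta1 after unloading. The WT calls included Myh1 in diabetes and Myh2 after unloading. Fibre markers were all detected, with a summed level of 206200 to 232900 CPM in diabetic mKO, 170800 to 236100 in diabetic WT, 135400 to 245400 in unloaded mKO, 173100 to 229200 in unloaded WT, 240400 to 273900 in control mKO and 256200 to 310200 CPM in control WT muscle. Summed fibroblast and tendon markers (7 of 7 detected) stood at 371 to 479.7, 295 to 490.2, 381 to 593, 305 to 616, 605 to 1118 and 768 to 1036 CPM in the same order of groups. Against controls, 0 of them were called higher and 4 lower in diabetic mKO, 1 and 4 in diabetic WT, 0 and 3 in unloaded mKO and 1 and 4 in unloaded WT. Summed macrophage and leukocyte markers (9 tested) stood at 54.0 to 70.5, 60.1 to 75.2, 55.3 to 86.2, 46.7 to 62.8, 50.3 to 86.4 and 69.8 to 81.2 CPM, again in that order of groups, with 1 called higher and 1 lower in diabetic WT, 5 lower in unloaded WT and 0 in either mKO comparison. Endothelial markers (7 tested) summed to 193.5 to 258.1, 205.8 to 256.3, 164.1 to 223.5, 185 to 227.9, 197 to 356 and 259.8 to 328.7 CPM, with 0 called higher, and 0 lower in diabetic mKO, 3 in diabetic WT, 2 in unloaded mKO and 3 in unloaded WT. Between diabetes and unloading 1 endothelial marker was higher in mKO and 2 in WT, with 0 calls among the fibroblast and the leukocyte markers. Of the 10 fibre markers, 1 was higher and 1 lower in mKO, and 2 were higher and 1 lower in WT. With GC content and length corrected, 2 were higher and 1 lower in each genotype. The calls before correction were Myh2 and Myh1 in both genotypes, and Acta1 in WT. Against controls, 0 of 5 erythroid markers tested were called in either genotype. Of 7 adipocyte markers, 1 was higher in unloaded WT, 1 was higher and 1 lower in diabetic WT, and 0 were called in mKO. Shares of all genes tested called against controls were 5.59% in diabetic mKO, 33.4% in diabetic WT, 7.31% in unloaded mKO and 34.7% in unloaded WT. The part of these cell types in the results below was not tested. In bulk muscle, fewer cells of a type and less RNA per cell cannot be told apart. Notch2 stood at 1.15 to 2.16 CPM in diabetic mKO and 1.74 to 3.18 in diabetic WT, at 1.29 to 1.58 in unloaded mKO and 1.34 to 2.02 in unloaded WT, and at 1.25 to 2.55 CPM in control mKO and 1.76 to 1.92 in control WT muscle. Those ranges overlapped in each condition, and since counts cover the whole gene and all cells, they do not check the genotype labels. Base composition moved with the treatments. An index of it, the average log2 level of 1241 genes under 42% GC minus that of 2669 genes over 56% GC, centred over libraries, ran from 0.38 to 0.54 in unloaded WT and 0.21 to 0.57 in diabetic WT, against -0.996 to -0.19 in control WT libraries. In mKO muscle it ran from -0.22 to 0.31 after unloading and -0.02 to 0.32 in diabetes, against -0.63 to 0.05 in controls. Member calls that change after correction of every library for GC content and transcript length are given with the member. Replicate 3 of control WT held the highest value of its group for 20 of 37 members (54.1%, against 30.9% of all genes), and replicate 3 of diabetic WT held the lowest for 22 of 37 (59.5%, against 33%). Replicate 4 of control mKO stood apart for Slc25a25.

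Slc25a4, the adenine nucleotide translocase of heart and skeletal muscle (chromosome 8, 46207168 to 46211062, minus strand in GRCm38), made up most of the family's transcripts. Per kilobase of transcript it averaged 1548 CPM over the 24 libraries, which was 66.1% of the summed per-kilobase level of the 37 members. The phosphate carrier Slc25a3 came next with 367 CPM per kilobase, or 15.7% of that sum. Behind it came Slc25a11, the oxoglutarate carrier of the malate-aspartate shuttle, at 126 and Slc25a12, the aspartate-glutamate carrier of excitable tissue, at 59.6 CPM per kilobase. Slc25a20, which carries acylcarnitines inward for fatty acid oxidation, followed at 40.9 CPM per kilobase. Slc25a13, the aspartate-glutamate carrier best known from liver, was lowest of the 37 at 0.140 CPM per kilobase. The share held by Slc25a4 was 66.2% ± 0.785 in diabetic mKO, 66.0% ± 1.84 in diabetic WT, 64.6% ± 2.15 in unloaded mKO, 66.6% ± 1.83 in unloaded WT, 66.6% ± 1.16 in control mKO and 66.0% ± 1.66 in control WT muscle (SD, n = 4 each). The lowest mean, in unloaded mKO, lay within 1 SD of that group from each of the other means. Slc25a30 and Slc25a25 varied most across libraries, with the highest CPM 15.3-fold and 14.3-fold above the lowest, whereas for Slc25a15, a carrier of ornithine, that ratio was 1.43.

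Unloading lowered more Slc25 transcripts than it raised in both genotypes, except that on the authors' own scaling the WT calls were 6 higher and 4 lower. In mKO muscle Slc25a25, Slc25a30, Slc25a22, Slc25a29 and Slc25a5 fell and Slc25a27 rose. In WT muscle the carriers that fell included Slc25a25, Slc25a13, Slc25a39, Slc25a35, Slc25a10, Slc25a5, Slc25a29, Slc25a23, Slc25a11 and Slc25a26, and Slc25a32, Slc25a46, Slc25a27 and Slc25a16 rose. Thus 6 of 37 members (16.2%) were called in mKO, where 7.31% of the 13048 genes tested were called, and 15 of 37 (40.5%) in WT, where 34.7% were called. Called here means an adjusted p below 0.05 in edgeR's quasi-likelihood F test with Benjamini-Hochberg adjustment over all genes tested, the source of each adjusted p below unless another tool is named. By direction, 5 fell and 1 rose in mKO, where 3.2% of genes fell and 4.11% rose, and 11 fell and 4 rose in WT, where 16.3% fell and 18.4% rose. Without regard to the test, unloaded and control libraries did not overlap for 10 lower and 2 higher members in mKO, against 6.23% and 6.41% of all genes, and for 11 lower and 5 higher members in WT, against 16.0% and 17.3%. The members' median log2 fold change was -0.10 in mKO, against 0.02 for all genes, and -0.17 in WT, against -0.02 for all genes. The WT calls on the authors' scaling came from limma on their log2 values, and in mKO limma called 0 members. Shares of all genes called on those values are not given here, so these counts are not set against a background. A gene's log2 fold change lies higher on those values than with TMM scaling, by a median over genes of 0.13 in mKO and 0.25 in WT. There the members' median was 0.00 in mKO, against 0.06 for all genes, and 0.02 in WT, against 0.07 for all genes, so its direction depends on the scaling. Without replicate 1 of unloaded mKO, 3 members were called in mKO.

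Diabetes also moved carriers in both directions, and in WT muscle the rises included Slc25a20, the carrier of acylcarnitines. In mKO muscle Slc25a29 and Slc25a47 fell and Slc25a27 rose. In WT muscle those that fell included Slc25a1, Slc25a35, Slc25a29, Slc25a10, Slc25a39, Slc25a47, Slc25a5, Slc25a11 and Slc25a26, and Slc25a34, Slc25a32, Slc25a46, Slc25a27, Slc25a42, Slc25a20 and Slc25a16 rose. These were 3 of 37 members (8.11%) in mKO, where 5.59% of all genes tested were called, and 17 of 37 (45.9%) in WT, where 33.4% were called. By direction, 2 fell and 1 rose in mKO, where 2.54% of genes fell and 3.05% rose, and 10 fell and 7 rose in WT, where 15.5% fell and 17.8% rose. Diabetic and control libraries did not overlap for 9 lower and 2 higher members in mKO, against 9.18% and 8.65% of all genes, and for 8 lower and 7 higher members in WT, against 14.1% and 15.9%. The members' median log2 fold change was -0.02 in mKO, against -0.01 for all genes, and -0.12 in WT, against -0.015 for all genes. On the authors' log2 values, where the log2 fold change lies higher by a median over genes of 0.13 in mKO and 0.26 in WT, limma called 1 member higher and 1 lower in mKO, and 7 higher and 5 lower in WT. Shares of all genes called on those values are again not given. The members' median turned positive there, at 0.09 in mKO, against 0.03 for all genes, and 0.03 in WT, against 0.10 for all genes. The mKO count fell to 0 without replicate 2 or 4 of control mKO or replicate 1, 3 or 4 of diabetic mKO, and to 1 without replicate 2 of diabetic mKO.

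Within a genotype both treatments share the same 4 control libraries, so the unloading and diabetes results are set side by side without a test of their likeness. In all 4 comparisons of a treatment with its control, 22 members were called at least once, 15 never, and none was called in opposite directions. Slc25a27 was called higher in all 4 and Slc25a29 lower in all 4, and Slc25a5 was called lower in 3. Shares of all genes called at least once, in all 4 or in opposite directions are not given here. WT unloading alone called 34.7% of all genes and WT diabetes 33.4%, so these counts describe the members without setting them apart. GC content of the member transcript and its log2 fold change ran against each other in WT, with a correlation across the 37 members of -0.389 for unloading and -0.476 for diabetes. That is a description over genes of the same libraries, and after correction for GC content and length it was 0.080 and 0.128. With that correction, WT unloading gave 5 members higher and 10 lower, of which 10 were called before, and WT diabetes gave 6 higher and 8 lower, of which 10 were called before. In mKO the 6 unloading calls remained, and diabetes kept Slc25a27 alone. Shares of all genes called with that correction are not given here. Corrected counts of members, and of the lists below, are therefore not set against a background.

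**Figure D1:**
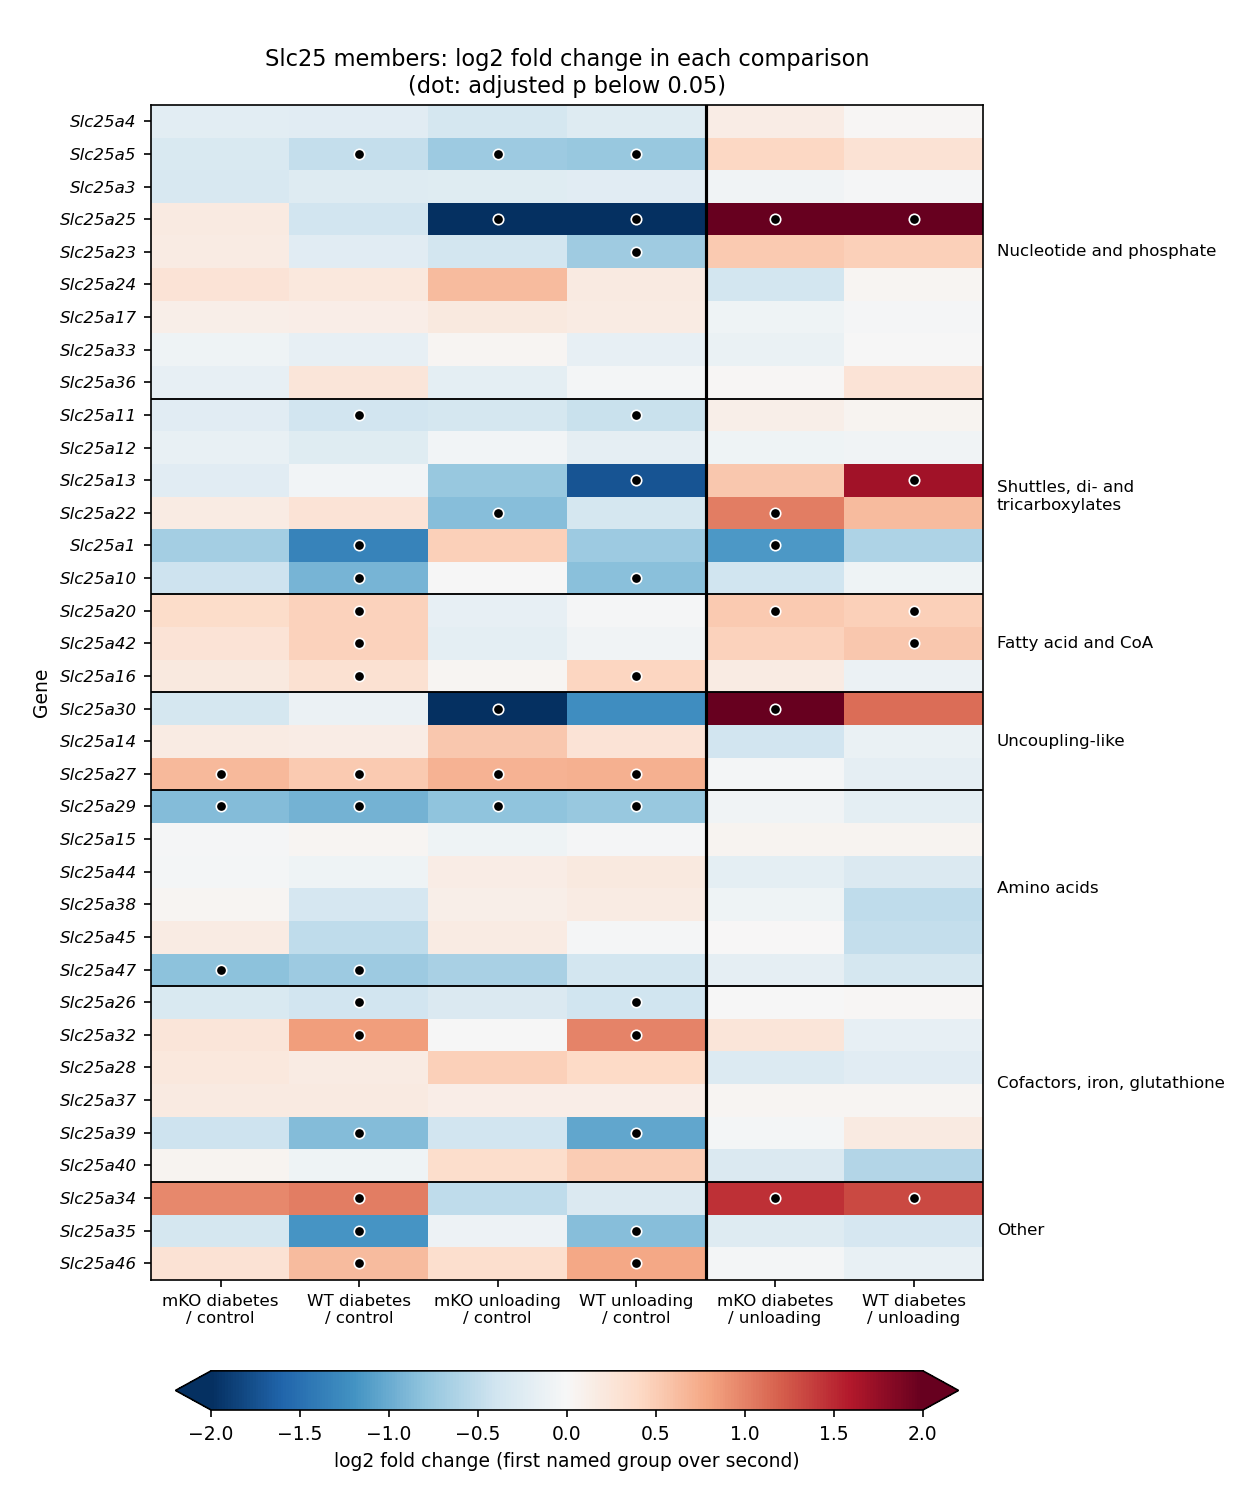
Log2 fold change of Slc25 members (down the page, by role) in 6 comparisons (across), the group named first over the group named second; red is higher, blue is lower, the colour scale ends at 2.0 in either direction, and a dot marks an adjusted p below 0.05. Slc25a27 is red and Slc25a29 blue with a dot in all 4 comparisons with controls, and Slc25a25 is blue after unloading and red for diabetes over unloading in both genotypes.

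**Figure D2:**
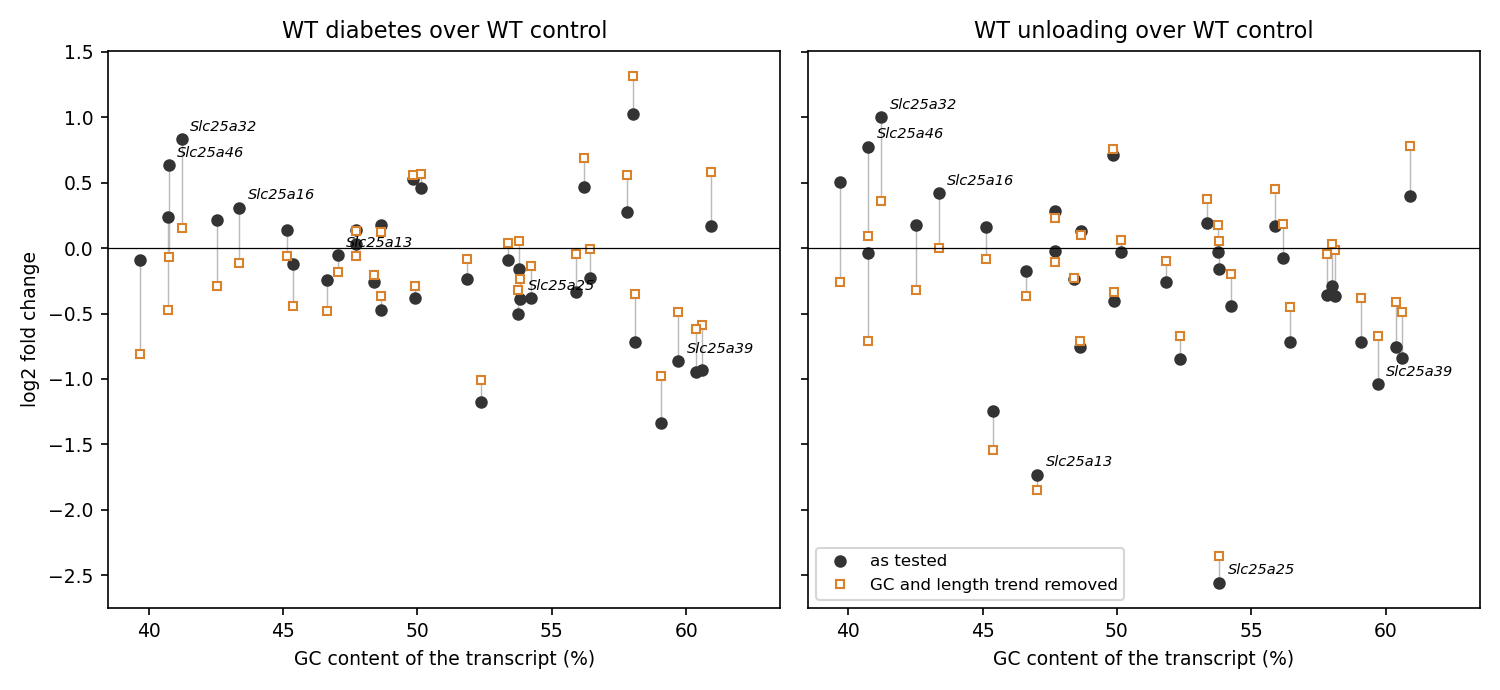
Log2 fold change of Slc25 members (vertical axis) against the GC content of its transcript in percent (horizontal axis) for WT diabetes (left) and WT unloading (right) over WT control; filled circles are the values as tested and open squares those after correction for GC content and length. Slc25a32, Slc25a46 and Slc25a16, of low GC content, lie above 0 as tested and drop with the correction, and Slc25a39, of high GC content, lies below 0 with both.

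Among the exporters of energy, Slc25a4 itself did not pass edgeR's test in any treatment comparison, although DESeq2 called it lower in unloaded mKO. Its levels were 3181, 2977, 2813 and 2784 CPM in diabetic mKO and 3065, 2758, 2190 and 3220 in diabetic WT muscle. Unloaded libraries held 2185, 2686, 3094 and 2664 CPM in mKO and 2285, 3004, 2915 and 2850 in WT, against 3366, 3269, 3634 and 3361 in control mKO and 3003, 3204, 3667 and 3323 in control WT. All 4 unloaded mKO and all 4 diabetic mKO libraries lay below the 4 mKO controls, while the WT groups overlapped. The log2 fold changes were -0.36 (adjusted p = 0.07) and -0.26 (adjusted p = 0.11) for unloading in mKO and WT, and -0.21 (adjusted p = 0.316) and -0.23 (adjusted p = 0.151) for diabetes. Without replicate 3 of unloaded mKO the mKO unloading difference passed (adjusted p = 0.0396). The sum over all 37 members, which Slc25a4 dominates, averaged 4654 ± 226 CPM in diabetic mKO, 4448 ± 623 in diabetic WT, 4294 ± 486 in unloaded mKO and 4334 ± 396 in unloaded WT, against 5317 ± 233 in control mKO and 5210 ± 410 CPM in control WT (SD, n = 4 each).

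Slc25a5, the second translocase, which proliferating cells use (chromosome X, 36795597 to 36798808, plus strand), fell in unloaded muscle of both genotypes. It measured 19.1, 18.8, 22 and 22.4 CPM in unloaded mKO and 23.5, 19.6, 19.4 and 17.9 in unloaded WT, against 27.2, 40.4, 39.9 and 28.9 CPM in control mKO and 33.1, 31.8, 46.3 and 24.7 in control WT. Diabetic libraries held 28.2, 27.5, 25.1 and 29.4 CPM in mKO and 26.5, 26.9, 19.1 and 25.5 in WT. Every unloaded library lay below every control of its genotype, and the diabetic groups overlapped their controls. Unloading gave a 1.66-fold lower level in mKO (log2 fold change -0.73, SE 0.16, adjusted p = 0.00908) and a 1.69-fold lower level in WT (log2 fold change -0.76, SE 0.16, adjusted p = 0.00073). In diabetes the fall was smaller and passed in WT (log2 fold change -0.47, adjusted p = 0.024) but not in mKO (log2 fold change -0.31, adjusted p = 0.251). The WT diabetes call was lost without replicate 3 of the control WT or replicate 3 of the diabetic WT (adjusted p up to 0.157) and with GC content and length corrected (adjusted p = 0.0808).

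The phosphate carrier Slc25a3 measured 569.5, 588, 531 and 500.5 CPM in diabetic mKO, 569.7, 528, 499.5 and 580.4 in diabetic WT, 542, 548, 605 and 608 in unloaded mKO and 507, 569, 604 and 534 in unloaded WT muscle. Controls held 609.6, 696, 751 and 674 CPM in mKO and 615, 612, 778 and 596 in WT. Treated libraries lay below all controls of their genotype except in unloaded WT, where the groups overlapped, and none of the 4 differences passed in edgeR, whereas DESeq2 called it lower in diabetic mKO and diabetic WT. Its log2 fold changes were -0.32 (adjusted p = 0.0624) and -0.26 (adjusted p = 0.054) in diabetes and -0.25 (adjusted p = 0.132) and -0.23 (adjusted p = 0.0769) after unloading, for mKO and WT in turn. Without replicate 4 of control WT the WT differences passed (adjusted p = 0.0462 for unloading and 0.0395 for diabetes), and without replicate 1 of control mKO the mKO diabetes difference passed (adjusted p = 0.0392).

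Slc25a25, which exchanges ATP-Mg for phosphate under control of calcium and so sets the nucleotide content of the matrix (chromosome 2, 32414487 to 32451470, minus strand), had the largest fold change of the members called after unloading in either genotype. Unloaded muscle held 11.1, 8.59, 9.14 and 9.02 CPM in mKO and 23.9, 15.3, 11 and 11.2 in WT. Controls held 105, 99.8, 66.4 and 12.3 CPM in mKO and 122, 113, 75.3 and 50.3 in WT. Each unloaded library lay below each control of its genotype, and the lowest control, replicate 4 of mKO, sat next to the unloaded range. The fall was 7.50-fold in mKO (log2 fold change -2.91, SE 0.42, adjusted p = 0.000462) and 5.88-fold in WT (log2 fold change -2.55, SE 0.41, adjusted p = 5.31e-05), and it passed in each fit that left out 1 library. Diabetic muscle held 88.6, 69.6, 85.7 and 78.7 CPM in mKO and 84, 67.6, 36.1 and 88.9 in WT. Diabetes was not called for Slc25a25, with 95% intervals of its log2 fold change of -0.62 to 0.99 in mKO and -1.19 to 0.42 in WT. Naif1, whose gene overlaps that of Slc25a25 by 1014 bases, measured 1.08 to 2.52 CPM over all libraries and changed by -0.01 (adjusted p = 0.99) in unloaded mKO and by 0.00 (adjusted p = 0.997) in unloaded WT.

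The promoter windows of Slc25a25, Slc25a30, Slc25a34 and Slc25a20 are shown because all diabetic libraries of these 4 genes lay above all unloaded libraries in both genotypes (Slc25a42, the fifth such member, is not shown). Each window spans 250 bases before and 50 after an annotated start, 5′ to 3′ on the gene's strand, from RefSeq on GRCm38.p6. Capitals mark the cAMP response element TGACGTCA, the nuclear receptor half-site AGGTCA and the CCAAT box. All were searched on both strands, so a match on the opposite strand shows as the reverse complement. For Slc25a25, which has 3 annotated starts in the table, start 3 is printed, at chr2:32424017-32424316 on the minus strand. The others lie at chr14:75786988-75787287 (minus) for Slc25a30, chr4:141623785-141624084 (minus) for Slc25a34 and chr9:108661886-108662185 (plus) for Slc25a20.
Slc25a25 start 3: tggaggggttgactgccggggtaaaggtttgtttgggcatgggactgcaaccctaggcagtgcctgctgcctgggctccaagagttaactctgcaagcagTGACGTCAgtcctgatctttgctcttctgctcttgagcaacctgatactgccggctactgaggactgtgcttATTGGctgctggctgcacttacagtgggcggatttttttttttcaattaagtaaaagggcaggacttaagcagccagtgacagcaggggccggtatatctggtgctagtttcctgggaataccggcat
Slc25a30: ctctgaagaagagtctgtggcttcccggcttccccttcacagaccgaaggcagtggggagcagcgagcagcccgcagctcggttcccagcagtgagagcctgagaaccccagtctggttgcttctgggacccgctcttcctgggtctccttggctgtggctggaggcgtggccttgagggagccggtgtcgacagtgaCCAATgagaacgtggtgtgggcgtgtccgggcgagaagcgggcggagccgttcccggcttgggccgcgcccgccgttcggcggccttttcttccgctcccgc
Slc25a34: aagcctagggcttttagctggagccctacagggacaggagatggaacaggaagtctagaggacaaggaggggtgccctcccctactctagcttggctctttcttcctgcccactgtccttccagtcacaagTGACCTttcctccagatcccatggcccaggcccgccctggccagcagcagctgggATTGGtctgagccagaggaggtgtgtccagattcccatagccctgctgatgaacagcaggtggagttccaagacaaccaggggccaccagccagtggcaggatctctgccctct
Slc25a20: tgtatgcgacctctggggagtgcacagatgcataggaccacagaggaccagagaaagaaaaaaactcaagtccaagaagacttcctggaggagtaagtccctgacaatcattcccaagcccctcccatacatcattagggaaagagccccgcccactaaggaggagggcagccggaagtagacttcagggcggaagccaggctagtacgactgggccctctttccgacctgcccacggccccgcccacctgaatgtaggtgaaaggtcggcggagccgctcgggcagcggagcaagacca
TGACGTCA stood 150 bases before start 3 of Slc25a25, and a window of Slc25a36 also held it. These were 2 of the 37 windows of the 29 members in the table, against 1.79% of all 32851 promoters. AGGTCA was held by 4 of 37, those of Slc25a34, Slc25a39, Slc25a45 and Slc25a47, against 16.3% of all promoters. CCAAT was held by 20 of 37 windows, against 37.4% of all promoters. Gene-level counts do not show which start of Slc25a25 was in use.

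Slc25a23 and Slc25a24 are the other ATP-Mg carriers measured. Slc25a23 averaged 11.9 ± 1.44 CPM in unloaded mKO and 11 ± 2.38 in unloaded WT, against 15.3 ± 1.98 in control mKO and 18.1 ± 1.41 in control WT (SD, n = 4 each). Its fall passed in WT (log2 fold change -0.71, adjusted p = 0.00205) and not in mKO (log2 fold change -0.36, adjusted p = 0.182). In diabetes Slc25a23 averaged 17.1 ± 2.64 CPM in mKO and 15.4 ± 3.83 in WT. Slc25a24, at 2.22 to 3.72 CPM in unloaded mKO and 1.93 to 3.52 in unloaded WT against 1.31 to 2.56 in control mKO and 1.92 to 2.48 in control WT, was called by edgeR in no treatment comparison and by DESeq2 in unloaded mKO.

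Among carriers related to the uncoupling proteins, Slc25a30, first described in kidney (chromosome 14, 75757534 to 75787037, minus strand), fell in unloaded mKO muscle. It measured 1.04, 0.679, 0.565 and 0.485 CPM in unloaded mKO and 0.849, 1.11, 0.984 and 1.11 in unloaded WT. Controls spread widely, with 1.73, 4.26, 7.41 and 1.63 CPM in mKO and 0.96, 1.42, 6.14 and 1.05 in WT. Diabetic libraries held 2.02, 2.42, 2.3 and 5.05 CPM in mKO and 1.92, 1.97, 2.13 and 2.75 in WT. All unloaded mKO libraries lay below all mKO controls, whereas in WT the unloaded range overlapped the 2 lowest controls and replicate 3 of control WT stood far above both. The mKO fall was 5.43-fold (log2 fold change -2.44, SE 0.52, adjusted p = 0.00831), and the WT difference did not pass (log2 fold change -1.24, adjusted p = 0.0592) except with GC content and length corrected (log2 fold change -1.55, adjusted p = 0.0342). Without replicate 3 of control WT the WT value was -0.20, and without replicate 1, 2 or 4 of control WT it passed. In diabetes the log2 fold changes were -0.35 (adjusted p = 0.709) in mKO and -0.12 (adjusted p = 0.87) in WT. Ucp3, the uncoupling protein of skeletal muscle, was also highest in replicate 3 of control WT, with 74.5, 39, 258 and 68.2 CPM in the 4 libraries of that group, and in replicates 2 and 3 of control mKO, with 46, 176, 257 and 59.97 CPM.

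Slc25a27, an uncoupling-like carrier best known from brain, rose in all 4 treatment comparisons. It measured 4.35, 2.99, 4.26 and 3.91 CPM in diabetic mKO and 3.43, 3.51, 3.33 and 3.77 in diabetic WT. Unloaded libraries held 4.38, 3.63, 4.2 and 3.8 CPM in mKO and 4.18, 3.35, 5.34 and 3.09 in WT, against 2.25, 2.14, 3.51 and 1.98 in control mKO and 2.46, 2.23, 2.4 and 2.66 in control WT. Groups stayed apart in 3 of the 4 comparisons, and in mKO diabetes replicate 3 of the controls reached into the diabetic range. The rises were 1.57-fold in diabetic mKO (log2 fold change 0.65, SE 0.19, adjusted p = 0.0405), 1.44-fold in diabetic WT (log2 fold change 0.53, SE 0.19, adjusted p = 0.0318), 1.62-fold in unloaded mKO (log2 fold change 0.70, SE 0.19, adjusted p = 0.0259) and 1.64-fold in unloaded WT (log2 fold change 0.71, SE 0.19, adjusted p = 0.00451). Diabetes calls were lost without replicate 1, 2 or 4 of the control mKO or replicate 1, 3 or 4 of the diabetic mKO (adjusted p up to 0.132) and without replicate 1, 2 or 3 of the control WT or replicate 2 or 4 of the diabetic WT (adjusted p up to 0.0775), and the mKO unloading call without replicate 1, 2 or 4 of the control mKO or replicate 1 of the unloaded mKO (adjusted p up to 0.0874). The WT unloading call passed in all 8 such fits. Slc25a14, the remaining uncoupling-like member, was called nowhere.

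Slc25a29, which carries basic amino acids into the matrix (chromosome 12, 108825878 to 108835876, minus strand), fell in all 4 treatment comparisons. Diabetic libraries held 4.81, 3.82, 4.89 and 3.27 CPM in mKO and 4.73, 3.55, 1.92 and 5.1 in WT, and unloaded libraries 4.17, 3.5, 4.2 and 5.79 in mKO and 4.99, 3.29, 5.57 and 3.55 in WT. Controls held 9.51, 8.95, 5.98 and 6.31 CPM in mKO and 6.57, 8.59, 7.16 and 7.08 in WT. Treated and control libraries did not overlap in any of the 4 comparisons. The falls were 1.83-fold in diabetic mKO (log2 fold change -0.87, SE 0.24, adjusted p = 0.0345), 1.92-fold in diabetic WT (log2 fold change -0.94, SE 0.24, adjusted p = 0.00387), 1.74-fold in unloaded mKO (log2 fold change -0.80, SE 0.24, adjusted p = 0.0421) and 1.69-fold in unloaded WT (log2 fold change -0.76, SE 0.24, adjusted p = 0.0162). The mKO diabetes call was lost without replicate 1, 2 or 4 of the control mKO or replicate 1, 2, 3 or 4 of the diabetic mKO (adjusted p up to 0.117), the mKO unloading call without replicate 1, 2 or 4 of the control mKO or replicate 1, 2 or 3 of the unloaded mKO (adjusted p up to 0.102) and the WT unloading call without replicate 2 of the unloaded WT (adjusted p up to 0.0646). With GC content and length corrected the WT unloading value was -0.41 (adjusted p = 0.184) and the mKO diabetes value -0.75 (adjusted p = 0.0538).

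**Figure D3:**
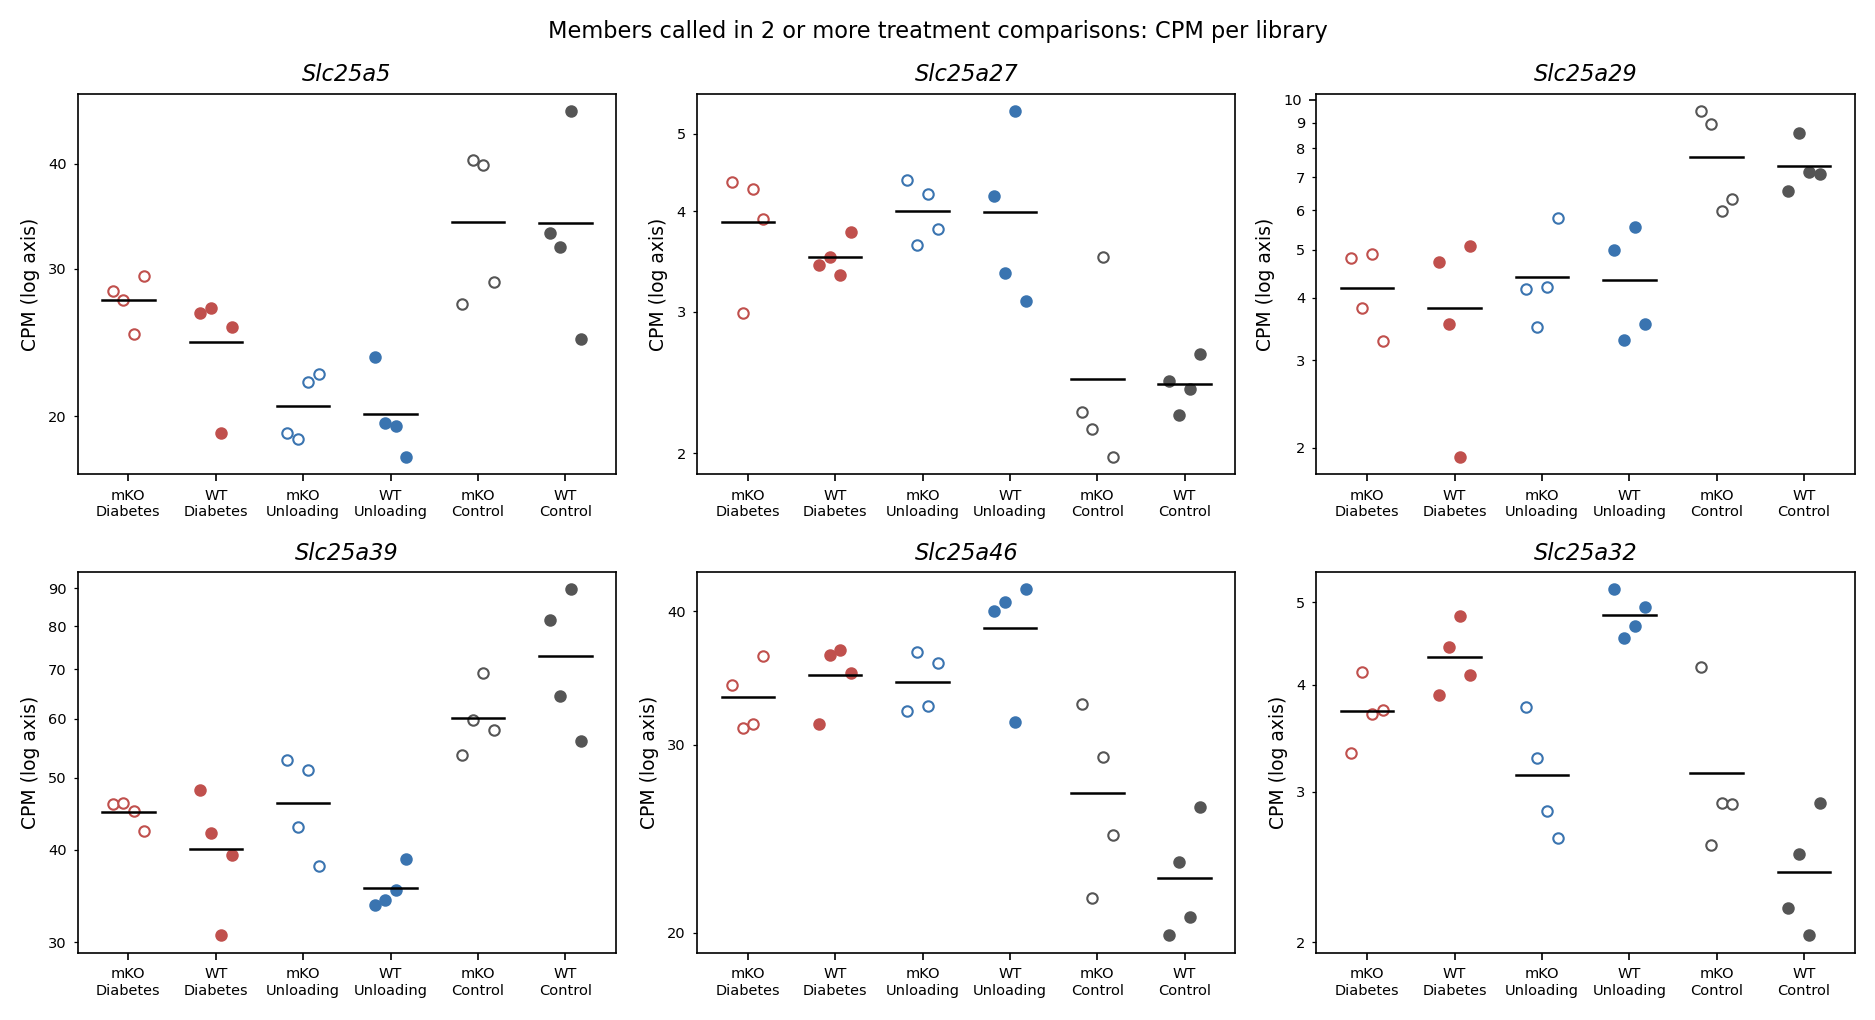
CPM per library (log axis) of 6 Slc25 members called in 2 or more treatment comparisons, in diabetic, unloaded and control muscle; open circles are mKO, filled circles WT, and each line is the mean of 4 libraries. Slc25a27 is higher and Slc25a29 lower in treated than in control groups of both genotypes.

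Of the carriers of the malate-aspartate shuttle, which moves reducing power into mitochondria, Slc25a11 and Slc25a13 fell in WT muscle and Slc25a12 was not called. Slc25a11 measured 224, 212, 208 and 212 CPM in diabetic mKO and 217, 194, 150.1 and 213 in diabetic WT. Unloaded muscle held 161, 196, 227 and 202 CPM in mKO and 138, 192, 211 and 202 in WT, against 247, 242, 268 and 245 in control mKO and 241, 238, 284 and 247 in control WT. All treated libraries lay below all controls of their genotype. Slc25a11 fell in WT under unloading (log2 fold change -0.44, adjusted p = 0.00874) and diabetes (log2 fold change -0.38, adjusted p = 0.0225), and in mKO the values were -0.35 (adjusted p = 0.0853) and -0.23 (adjusted p = 0.297). Both WT calls were lost with GC content and length corrected (adjusted p = 0.222 and 0.431), and the WT diabetes call without replicate 3 of the control WT or replicate 3 of the diabetic WT (adjusted p up to 0.103). Rnf167, whose gene overlaps Slc25a11 by 302 bases, was called in neither WT comparison.

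Slc25a12 averaged 363 ± 17.5 CPM in diabetic mKO, 347 ± 60.2 in diabetic WT, 385 ± 58.1 in unloaded mKO and 365 ± 32.5 in unloaded WT, against 401 ± 8.15 in control mKO and 411 ± 20.2 in control WT (SD, n = 4 each). Its log2 fold changes were -0.15 (adjusted p = 0.493) and -0.25 (adjusted p = 0.109) in diabetes and -0.06 (adjusted p = 0.805) and -0.17 (adjusted p = 0.265) after unloading, mKO before WT. After correction for GC content and length the WT diabetes value was -0.48 and passed (adjusted p = 0.0148). Slc25a13, its counterpart at far lower level, fell in unloaded WT muscle (log2 fold change -1.73, SE 0.44, adjusted p = 0.00375). It held 0.17, 0.123, 0.0837 and 0.38 CPM in unloaded WT, against 0.66, 0.617, 0.509 and 0.68 in control WT, and 0.226, 0.418, 0.294 and 0.243 CPM in unloaded mKO, against 0.173, 0.481, 0.751 and 0.601 in control mKO. The WT groups did not overlap, and the lowest unloaded WT value lies near the level of 3 counts. Slc25a22, a glutamate carrier, held 3.7, 5.79, 4.92 and 5.32 CPM in unloaded mKO, against 8.3, 9.4, 10.6 and 7.49 in control mKO, and 6.45, 6.82, 6.13 and 7.92 CPM in unloaded WT, against 10.9, 8.12, 11.5 and 4.42 in control WT. It fell in mKO, where the groups did not overlap (log2 fold change -0.86, adjusted p = 0.0192), and did not pass in WT (log2 fold change -0.36, adjusted p = 0.203). The mKO call was lost without replicate 3 of the control mKO or replicate 1 of the unloaded mKO (adjusted p up to 0.0557).

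Fatty acid entry involves Slc25a20, the carnitine-acylcarnitine carrier (chromosome 9, 108662136 to 108684642, plus strand), and coenzyme A enters through Slc25a42. Slc25a20 held 93.2, 95.9, 88.2 and 80.7 CPM in diabetic mKO and 85.2, 93.2, 77.3 and 98.7 in diabetic WT, against 71, 73.9, 65.2 and 66.5 in control mKO and 57.9, 72.1, 69.5 and 59 in control WT. Unloaded libraries held 43.6, 67.8, 60 and 76.3 CPM in mKO and 65.7, 71.3, 63.2 and 53.3 in WT. Each diabetic library lay above each control of its genotype, and unloaded libraries overlapped the controls. Diabetes raised it 1.37-fold in WT (log2 fold change 0.46, SE 0.13, adjusted p = 0.00958), and the mKO value of 0.37 did not pass (adjusted p = 0.0936). After unloading the values were -0.16 (adjusted p = 0.483) in mKO and -0.03 (adjusted p = 0.895) in WT, and with GC content and length corrected the WT value was 0.06. Slc25a42 rose in diabetic WT (log2 fold change 0.47, adjusted p = 0.00858), with 22, 26.5, 20.9 and 23.4 CPM against 15.8, 16.7, 18.9 and 15.9 in control WT, and in diabetic mKO it held 20.2, 23.7, 17.9 and 20.4 CPM against 18.2, 18, 18.1 and 14.1 in control mKO (log2 fold change 0.27, adjusted p = 0.238). Slc25a16, linked to coenzyme A in yeast, was called higher in WT under unloading (log2 fold change 0.42, adjusted p = 0.00602) and diabetes (log2 fold change 0.31, adjusted p = 0.0409). It averaged 20.1 ± 2.67 CPM in diabetic WT and 21.8 ± 1.9 in unloaded WT, against 16.2 ± 1.17 in control WT (SD, n = 4 each). With that correction neither passed (adjusted p = 0.994 and 0.494), and the diabetes call was lost without replicate 1, 2 or 3 of the control WT or replicate 1 or 2 of the diabetic WT (adjusted p up to 0.164).

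Slc25a34 (chromosome 4, 141618819 to 141623891, minus strand), a carrier with no agreed substrate in mammals, rose in diabetic WT muscle. It held 19.6, 21.2, 13.1 and 13.5 CPM in diabetic mKO and 14.5, 15.3, 16.4 and 16.5 in diabetic WT, against 6.63, 11.9, 9.69 and 6.51 in control mKO and 6.66, 5.86, 13.5 and 4.73 in control WT. Diabetic and control libraries did not overlap in either genotype. The WT rise was 2.04-fold (log2 fold change 1.03, SE 0.37, adjusted p = 0.0351), and the mKO value of 0.95 did not pass (adjusted p = 0.122). The WT call was lost without replicate 1, 2 or 4 of the control WT or replicate 2, 3 or 4 of the diabetic WT (adjusted p up to 0.0944). Its relative Slc25a35 fell in WT under diabetes (log2 fold change -1.17, adjusted p = 0.00102) and unloading (log2 fold change -0.85, adjusted p = 0.011). Slc25a35 held 3.73, 1.88, 1.28 and 2.84 CPM in diabetic WT and 2.33, 2.49, 3.52 and 3.91 in unloaded WT, against 5.28, 5.62, 6.14 and 4.89 in control WT. In mKO it held 3.5, 3.15, 4.49 and 3.32 CPM in diabetes and 6.41, 3.39, 3.97 and 3.56 after unloading, against 4.16, 4.79, 3.97 and 5.61 in controls, with no call. Rangrf, which overlaps Slc25a35 by 33 bases, was called lower in all 4 comparisons, with 20.4 to 24.1 CPM in unloaded WT against 39.5 to 56.2 in control WT.

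Of the carriers of carboxylates, Slc25a1, which exports citrate for lipid synthesis, fell in diabetic WT muscle (log2 fold change -1.34, SE 0.31, adjusted p = 0.00162). It held 3.63, 3.35, 2.77 and 1.75 CPM in diabetic mKO and 2.18, 2.72, 1.82 and 2.34 in diabetic WT, against 5.26, 3.94, 3.68 and 5.53 in control mKO and 6.78, 6.36, 3.85 and 5.88 in control WT. Unloaded libraries held 8.87, 2.71, 10.2 and 3.76 CPM in mKO and 3.44, 3.47, 3.18 and 3.8 in WT. DESeq2 also called it in unloaded WT. In WT both treated groups lay below the controls, while unloaded mKO libraries split into 2 high and 2 low values. The mKO diabetes value was -0.67 (adjusted p = 0.183). Slc25a10, the dicarboxylate carrier, averaged 2.44 ± 0.696 CPM in diabetic WT and 2.61 ± 0.65 in unloaded WT, against 4.65 ± 0.93 in control WT (SD, n = 4 each). It fell in WT under unloading (log2 fold change -0.84, adjusted p = 0.00608) and diabetes (log2 fold change -0.93, adjusted p = 0.00308), and corrected for GC content and length neither passed (adjusted p = 0.103 and 0.0514). Slc25a47, best known from liver, fell in diabetes in mKO (log2 fold change -0.82, adjusted p = 0.0415) and WT (log2 fold change -0.72, adjusted p = 0.0234). It held 1.44, 1.09, 1.56 and 1.67 CPM in diabetic mKO and 1.48, 1.26, 0.843 and 1.41 in diabetic WT, against 2.3, 2.27, 3.58 and 2.03 in control mKO and 2.28, 1.9, 2.69 and 1.36 in control WT. The mKO groups stayed apart and the WT groups overlapped. Both calls were lost with that correction (adjusted p = 0.0793 and 0.272), in mKO also without replicate 2, 3 or 4 of the control mKO or replicate 1, 2, 3 or 4 of the diabetic mKO (adjusted p up to 0.163) and in WT without replicate 1 or 3 of the control WT or replicate 3 of the diabetic WT (adjusted p up to 0.104).

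Of the carriers of cofactors and glutathione, Slc25a39 and Slc25a26 fell in WT muscle and Slc25a32 rose. Slc25a39, needed for glutathione import, measured 48.1, 42.2, 30.6 and 39.3 CPM in diabetic WT and 33.7, 34.2, 35.2 and 38.8 in unloaded WT, against 81.6, 64.5, 89.7 and 56 in control WT. In mKO it held 46, 46.2, 45 and 42.3 CPM in diabetes and 52.8, 42.9, 51.2 and 38 after unloading, against 53.6, 59.8, 69.2 and 57.9 in controls. All treated libraries lay below all controls of their genotype. It fell 2.06-fold in unloaded WT (log2 fold change -1.04, SE 0.14, adjusted p = 8.44e-06) and 1.82-fold in diabetic WT (log2 fold change -0.86, adjusted p = 7.54e-05), and the mKO values of -0.38 (adjusted p = 0.0923) and -0.42 (adjusted p = 0.0735) did not pass. Slc25a26, the carrier of S-adenosylmethionine, averaged 14.3 ± 1.14 CPM in diabetic WT and 14 ± 0.914 in unloaded WT, against 18.6 ± 1.72 in control WT (SD, n = 4 each), and fell in both WT comparisons (log2 fold change -0.38, adjusted p = 0.00737 in diabetes and log2 fold change -0.41, adjusted p = 0.00417 in unloading). Both carriers kept their WT calls with GC content and length corrected.

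Slc25a32, a folate carrier, rose in WT muscle under both treatments. It held 3.89, 4.43, 4.81 and 4.11 CPM in diabetic WT and 5.18, 4.54, 4.69 and 4.94 in unloaded WT, against 2.19, 2.54, 2.04 and 2.91 in control WT. In mKO it held 3.33, 4.14, 3.7 and 3.74 CPM in diabetes and 3.77, 3.29, 2.85 and 2.65 after unloading, against 4.2, 2.6, 2.91 and 2.9 in controls. The WT groups stayed apart and the mKO groups overlapped. The rise was 1.998-fold in unloaded WT (log2 fold change 0.999, SE 0.16, adjusted p = 5.74e-05) and 1.78-fold in diabetic WT (log2 fold change 0.83, adjusted p = 0.000405). After correction for GC content and length these were 0.36 (adjusted p = 0.0387) and 0.15 (adjusted p = 0.411). Slc25a46, which sits in the outer membrane and shapes mitochondria, held 31.4, 36.4, 36.8 and 35 CPM in diabetic WT and 39.99, 40.8, 31.5 and 41.9 in unloaded WT, against 19.9, 23.3, 20.7 and 26.2 in control WT. In mKO it held 34.1, 31.1, 31.4 and 36.3 CPM in diabetes and 32.3, 36.6, 32.6 and 35.8 after unloading, against 32.8, 21.6, 29.2 and 24.7 in controls. The WT rises of 0.77 (adjusted p = 3.89e-05) in unloading and 0.63 (adjusted p = 0.000366) in diabetes became 0.09 (adjusted p = 0.563) and -0.07 (adjusted p = 0.695) with that correction. The transcripts of Slc25a32 and Slc25a46 contain 41.2% and 40.7% GC, and that of Slc25a39 contains 59.7%.

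Slc25a33, a pyrimidine nucleotide carrier of growing cells, was called nowhere. It averaged 15.1 ± 1.13 CPM in diabetic mKO, 14.7 ± 3.79 in diabetic WT, 16.5 ± 4.4 in unloaded mKO and 14.7 ± 1.56 in unloaded WT, against 16 ± 3.1 in control mKO and 16.4 ± 4.96 in control WT (SD, n = 4 each). Its log2 fold changes had 95% intervals of -0.50 to 0.33 and -0.58 to 0.26 in diabetes and of -0.37 to 0.46 and -0.58 to 0.26 after unloading, mKO before WT. The iron carriers Slc25a28 and Slc25a37, the branched-chain amino acid carrier Slc25a44, the glycine carrier Slc25a38, the ornithine carrier Slc25a15, the glutathione carrier Slc25a40, the peroxisomal Slc25a17, and Slc25a36 and Slc25a45 were also uncalled. Their log2 fold changes in the 4 treatment comparisons lay between -0.51 (Slc25a45, WT diabetes) and 0.50 (Slc25a40, WT unloading). After correction for GC content and length, Slc25a28, Slc25a30, Slc25a36, Slc25a38 and Slc25a44 were called in WT unloading, and Slc25a12, Slc25a22, Slc25a28 and Slc25a40 were called in WT diabetes.

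Set against each other within a genotype, diabetic muscle held more of several carriers than unloaded muscle. In mKO, Slc25a25, Slc25a30, Slc25a34, Slc25a22 and Slc25a20 were higher in diabetes and Slc25a1 was lower. In WT, Slc25a25, Slc25a13, Slc25a34, Slc25a42 and Slc25a20 were higher and none was lower, although Slc25a38 stood just short of a lower call (log2 fold change -0.51, adjusted p = 0.0503) and was called lower by DESeq2 and with GC content and length corrected (adjusted p = 0.034). These were 6 of 37 members (16.2%) in mKO, where 3.07% of all genes tested were called, and 5 of 37 (13.5%) in WT, where 3.56% were called. By direction, 1.95% of all genes were higher and 1.12% lower in mKO, and 2.31% higher and 1.24% lower in WT. Diabetic libraries lay above all unloaded libraries for 8 members and below them for 0 in mKO, against 5.2% and 4.84% of all genes, and for 6 and 3 in WT, against 5.25% and 4.99%. The members' median log2 fold change was -0.01 against -0.03 in mKO and 0.00 against -0.01 in WT. No library is shared between the mKO and WT contrasts. Slc25a20, Slc25a25 and Slc25a34 were called in both, where 232 of the 13048 genes tested were called in both. The sign was the same in both for 31 of 37 members (83.8%), against 71.5% of all genes tested. The mKO count was 3 without replicate 1 of unloaded mKO or replicate 2 of diabetic mKO and 2 without replicate 3 of unloaded mKO. The WT count was 1 without replicate 1 or 3 of unloaded WT, 2 without replicate 2 or 4 of diabetic WT and 3 without replicate 4 of unloaded WT or replicate 1 of diabetic WT.

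For Slc25a25 the level in diabetic muscle was 8.52-fold that of unloaded muscle in mKO (log2 fold change 3.09, SE 0.43, adjusted p = 0.000183) and 4.49-fold in WT (log2 fold change 2.17, SE 0.41, adjusted p = 0.00362). All diabetic libraries lay above all unloaded libraries, and both calls passed in each of the 8 fits that left out 1 library. Slc25a30 was 4.25-fold higher in mKO (log2 fold change 2.09, SE 0.52, adjusted p = 0.0263), and in WT, where the groups also stayed apart, the value was 1.12 (adjusted p = 0.252). The mKO call was lost without replicate 2, 3 or 4 of the unloaded mKO or replicate 4 of the diabetic mKO (adjusted p up to 0.113). Slc25a34 was 2.75-fold higher in mKO (log2 fold change 1.46, SE 0.37, adjusted p = 0.0306) and 2.49-fold higher in WT (log2 fold change 1.31, SE 0.37, adjusted p = 0.0472). Unloaded libraries of Slc25a34 held 2.17, 6.03, 4.74 and 11.5 CPM in mKO and 7.13, 10.3, 4.04 and 3.61 in WT, below every diabetic library of their genotype. Its calls were lost without replicate 1, 2 or 3 of the unloaded mKO or replicate 1 or 2 of the diabetic mKO (adjusted p up to 0.106) and without replicate 1, 3 or 4 of the unloaded WT or replicate 1, 2, 3 or 4 of the diabetic WT (adjusted p up to 0.137).

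Slc25a20 was 1.44-fold higher in diabetic than in unloaded mKO (log2 fold change 0.53, SE 0.13, adjusted p = 0.0254) and 1.40-fold higher in WT (log2 fold change 0.48, SE 0.13, adjusted p = 0.0381), again without overlap. These calls were lost without replicate 1 or 3 of the unloaded mKO or replicate 1 or 2 of the diabetic mKO (adjusted p up to 0.0925) and without replicate 1, 3 or 4 of the unloaded WT or replicate 1, 2 or 4 of the diabetic WT (adjusted p up to 0.126). Slc25a42 passed in WT (log2 fold change 0.54, adjusted p = 0.0205) and stood just short in mKO (log2 fold change 0.46, adjusted p = 0.0593), with 10.8, 16.3, 15.9 and 16.9 CPM in unloaded mKO and 13.8, 17.9, 15.9 and 16.4 in unloaded WT. Its WT call was lost without replicate 1 or 3 of the unloaded WT or replicate 2 of the diabetic WT (adjusted p up to 0.0841), and with GC content and length corrected, or by DESeq2, it was called in mKO as well. Slc25a22 was 2.04-fold higher in diabetic mKO (log2 fold change 1.03, SE 0.22, adjusted p = 0.00807), with 11.7, 9.41, 9.06 and 10.1 CPM in diabetic mKO and 11.6, 10.4, 7.42 and 13.1 in diabetic WT. In WT its value was 0.64 (adjusted p = 0.101). Slc25a13 was higher in diabetic WT (log2 fold change 1.68, adjusted p = 0.0299), with 0.304, 0.464, 0.541 and 0.394 CPM in diabetic mKO and 0.533, 0.428, 0.652 and 0.751 in diabetic WT, and its call was lost without replicate 1, 2 or 3 of the unloaded WT or replicate 3 or 4 of the diabetic WT (adjusted p up to 0.106). Slc25a1 was lower in diabetic mKO (log2 fold change -1.15, adjusted p = 0.0345), and that call was lost without replicate 1 or 3 of the unloaded mKO or replicate 2, 3 or 4 of the diabetic mKO (adjusted p up to 0.15).

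**Figure D4:**
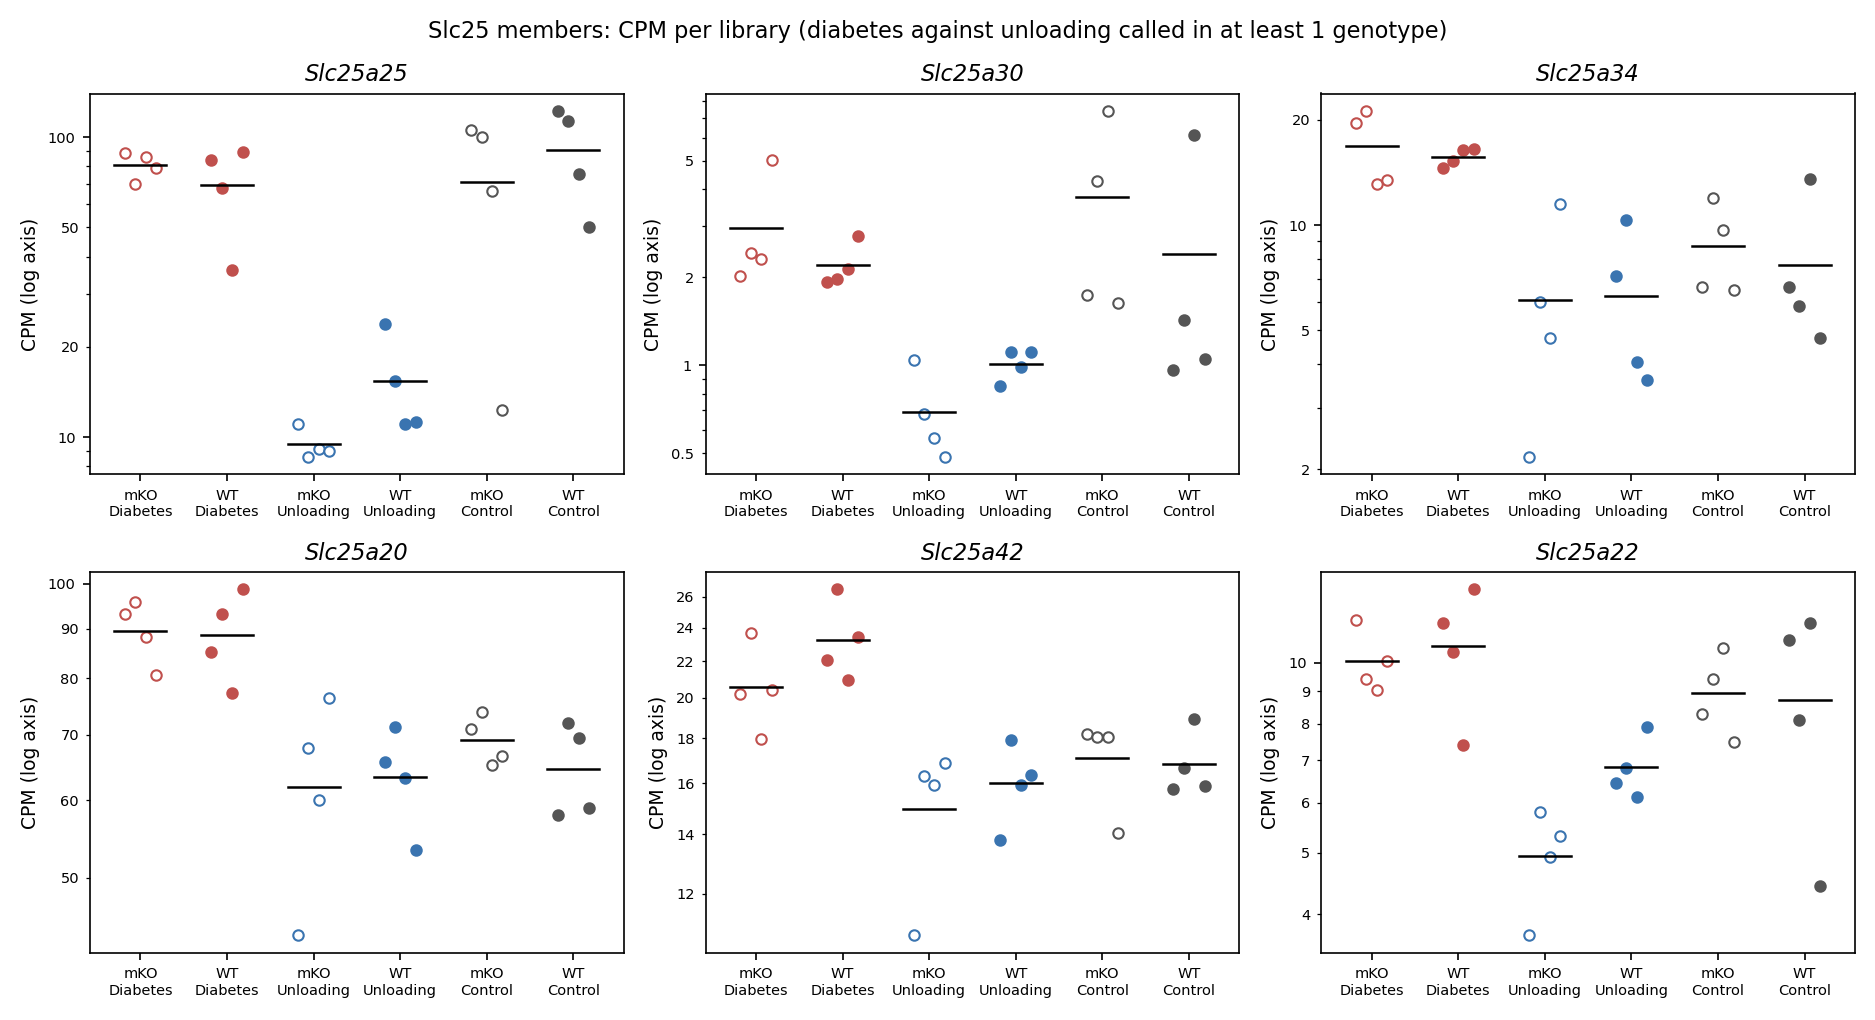
CPM per library (log axis) of 6 Slc25 members for which diabetes against unloading was called in at least 1 genotype; open circles are mKO, filled circles WT, and each line is the mean of 4 libraries. For Slc25a25, Slc25a34 and Slc25a20 all diabetic libraries lie above all unloaded libraries of the same genotype.

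**Figure D5:**
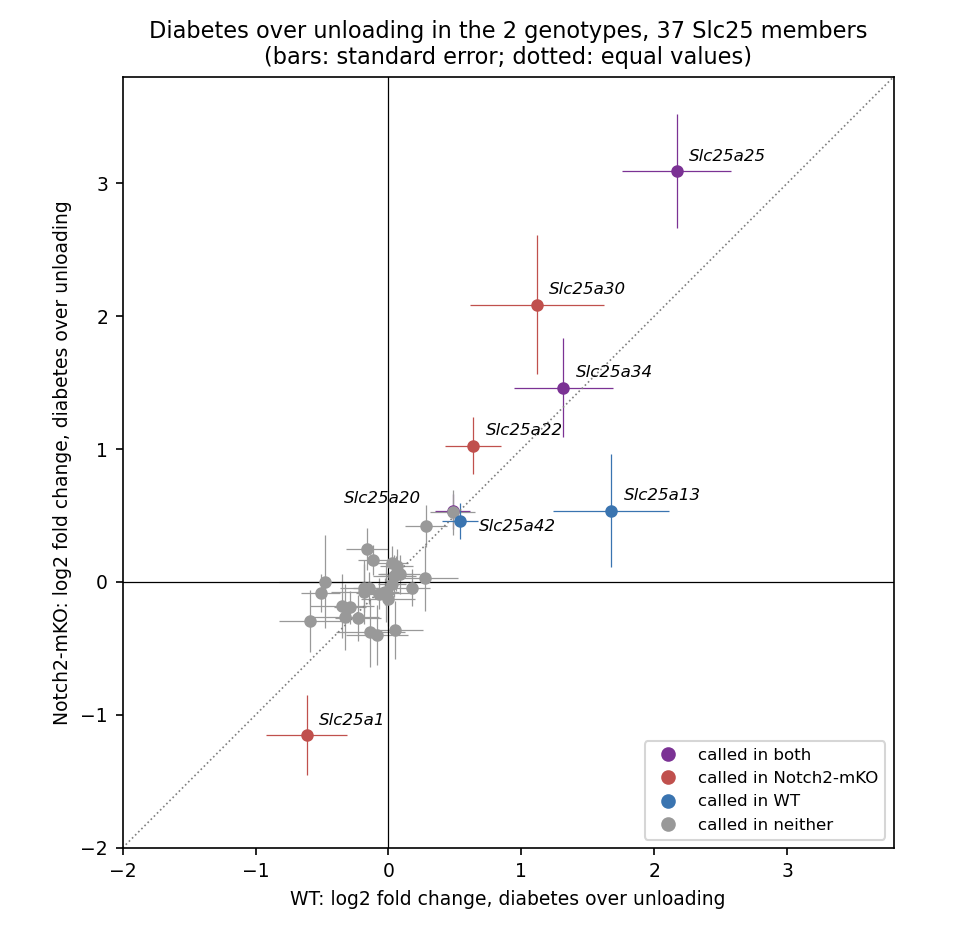
Log2 fold change of diabetes over unloading in mKO (vertical axis) against that in WT (horizontal axis) for the 37 members, with SE bars; colours give the genotype in which a member was called. Slc25a25, Slc25a34 and Slc25a20 were called in both.

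Partners of these carriers were read from lists of 6 kinds. Of all genes tested, 4.11% were called higher and 3.2% lower in unloaded mKO, and 18.4% and 16.3% in unloaded WT. In diabetes against controls the shares were 3.05% and 2.54% in mKO and 17.8% and 15.5% in WT. Between diabetes and unloading 1.95% were higher and 1.12% lower in mKO, and 2.31% and 1.24% in WT. Among the partners of the shuttles, 3 of 11 tested genes were higher in diabetic than in unloaded muscle of each genotype, and none lower. They were Cpt1b and Cpt1a, which load fatty acids on carnitine for Slc25a20, and Crat, which makes acetylcarnitine. Cpt1b held 158, 165, 157 and 149.9 CPM in diabetic mKO and 155, 170, 138 and 162 in diabetic WT, against 73, 115, 106 and 125 in unloaded mKO and 93.6, 108, 103 and 103 in unloaded WT, with no overlap (log2 fold change 0.59, adjusted p = 0.00427 and log2 fold change 0.62, adjusted p = 0.00329). Crat differed by 0.37 (adjusted p = 0.0231) in mKO and 0.37 (adjusted p = 0.0238) in WT, and Cpt1a by 0.68 (adjusted p = 0.0384) and 0.68 (adjusted p = 0.0336). With GC content and length corrected 2 remained called in mKO and 1 in WT, since Cpt1a (adjusted p = 0.0544 in mKO and 0.061 in WT) and, in WT, Crat (adjusted p = 0.0527) no longer passed. Against controls, the same list gave 0 higher and 3 lower of 11 in unloaded mKO, 0 and 5 in unloaded WT, 1 and 1 in diabetic mKO and 3 and 5 in diabetic WT, and with that correction 0 and 3, 1 and 3, 2 and 2, and 3 and 3. Its lowest values included Ckmt2, the mitochondrial creatine kinase that works beside Slc25a4. Ckmt2 held 245, 491, 604 and 519.5 CPM in unloaded mKO and 255, 389, 383 and 491 in unloaded WT, against 789, 1004, 1105 and 913 in control mKO and 915, 947, 1185 and 924 in control WT (log2 fold change -1.04, adjusted p = 0.0139 and log2 fold change -1.39, adjusted p = 0.000136). Got1, the cytosolic aminotransferase of the malate-aspartate shuttle, was lower in all 4 comparisons (log2 fold changes of -0.41 in diabetic mKO, -0.45 in diabetic WT, -0.48 in unloaded mKO and -0.51 in unloaded WT).

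Carriers of the same family under other symbols made a list of 5 genes, Ucp1, Ucp2, Ucp3, Mtch1 and Mtch2, of which 4 were tested and Ucp1 was listed at 0. Outside that list, Slc25a51, Slc25a53 and Slc25a54, held under the older symbols Mcart1, Mcart6 and 4930443G12Rik, also had mean counts of 0. Of 10 genes on the lists found through older symbols, Mcu, Smdt1 and Timm10b had mean counts of 0 as well, and the others did not. Whether such a 0 means no transcript or a gene model that received no reads was not tested. Mtch1 was called lower in unloaded WT (log2 fold change -0.57, adjusted p = 0.000738) and diabetic WT (log2 fold change -0.59, adjusted p = 0.000619) against controls, and in neither with GC content and length corrected (adjusted p = 0.163 and 0.11). Ucp2 held 21.2, 25.6, 23.8 and 24.5 CPM in diabetic mKO and 24.6, 27.3, 19.1 and 31.2 in diabetic WT, against 11.1, 15.6, 13.6 and 11.4 in unloaded mKO and 8.76, 8.65, 10.4 and 12.8 in unloaded WT. It was higher in diabetes in mKO (log2 fold change 0.88, adjusted p = 0.021) and WT (log2 fold change 1.33, adjusted p = 0.000923), with no overlap, and lower in unloaded than in control WT (log2 fold change -0.89, adjusted p = 0.00238). Ucp2 in diabetes against controls did not pass as tested and passed in both genotypes with that correction (adjusted p = 0.048 in mKO and 0.0413 in WT). Ucp3 held 137, 142, 147 and 259.9 CPM in diabetic mKO and 161, 161, 63.9 and 276 in diabetic WT, against 31, 73.2, 69.5 and 47.7 in unloaded mKO and 98.3, 88.7, 76.4 and 107 in unloaded WT, and passed in neither (log2 fold change 1.63, adjusted p = 0.0833 and log2 fold change 0.84, adjusted p = 0.427). The pyruvate carrier subunit Mpc1 went the other way, with 274, 257, 286 and 281 CPM in diabetic mKO and 261, 219, 206 and 259 in diabetic WT, against 322, 395, 366 and 368 in unloaded mKO and 275, 306, 320.4 and 354 in unloaded WT (log2 fold change -0.40, adjusted p = 0.0231 and log2 fold change -0.41, adjusted p = 0.0177), and the WT call was lost with that correction (adjusted p = 0.0596). Its partner Mpc2 differed by -0.06 (adjusted p = 0.903) and -0.20 (adjusted p = 0.521). On the list of 10 pyruvate carrier, VDAC and sideroflexin genes, Mpc1 was the single call between diabetes and unloading in either genotype. Against controls the list had 3 calls in diabetic WT, where Vdac2 (-0.42), Mpc2 (-0.42) and Mpc1 (-0.25) were lower on the log2 scale, and 0 in the other 3 comparisons. The Mpc2 call was lost with the correction (adjusted p = 0.484).

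Of 16 import genes tested, which carry newly made carriers into the inner membrane, 1 was higher and 1 lower in unloaded mKO, 1 and 4 in unloaded WT, 1 and 0 in diabetic mKO and 1 and 4 in diabetic WT. The single rise was the receptor Tomm70a in each of the 4 (log2 fold changes of 0.45 in unloaded mKO, 0.999 in unloaded WT, 0.48 in diabetic mKO and 0.91 in diabetic WT). With GC content and length corrected it kept its call in unloaded WT (log2 fold change 0.30, adjusted p = 0.0275) and lost it in unloaded mKO (adjusted p = 0.109), diabetic mKO (adjusted p = 0.283) and diabetic WT (adjusted p = 0.233). Among 13 markers of mitochondrial content, 0 were higher and 1 lower in unloaded mKO, 2 and 3 in unloaded WT, 0 and 1 in diabetic mKO and 1 and 3 in diabetic WT. Of all genes tested, 7.31% were called in unloaded mKO, 34.7% in unloaded WT, 5.59% in diabetic mKO and 33.4% in diabetic WT. Of 6 genes tested around the calcium uniporter, Efha2 (Micu3) was higher in unloaded WT (log2 fold change 1.59), diabetic mKO (0.95) and diabetic WT (1.53). Neither the import list nor the content list had a call between diabetes and unloading.

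Between genotypes no Slc25 member was called in control, unloaded or diabetic muscle, and none was called for a difference in its response to unloading or diabetes. The share of all genes called in each of these 5 comparisons was 0.0%. Members with an unadjusted p below 0.05 numbered 3 in control, 5 in unloaded and 2 in diabetic muscle, and 7 and 3 for the differences in response, while 5.33%, 10.3%, 5.30%, 14.4% and 8.75% of all genes had one. DESeq2 called 0 members in each but the difference in unloading response, where it called Slc25a32. Slc25a32 and Slc25a39 are named here after their values were seen. The unloading response of Slc25a32, mKO minus WT, was -1.01 on the log2 scale (95% interval -1.48 to -0.54, adjusted p = 0.122), and that of Slc25a39 was 0.66 (95% interval 0.25 to 1.07, adjusted p = 0.162). Without replicate 4 of control WT both passed in edgeR (adjusted p = 0.0160 and 0.0309), and with GC content and length corrected they were -0.55 (adjusted p = 0.423) and 0.36 (adjusted p = 0.618).

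For Slc25a25 the difference in unloading response, mKO minus WT, had a 95% interval of -1.50 to 0.80, and the difference in diabetes response -0.56 to 1.71. For Slc25a4, mKO minus WT in control muscle was 0.05 with an interval of -0.21 to 0.30. The larger number of calls in WT than in mKO is therefore not a tested difference between the genotypes.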

How the data were processed

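RNA from frozen gastrocnemius was sequenced in 24 libraries, 4 in each of 6 groups. The authors deposited estimated counts per gene model and log2 expression values, with the counts not whole for most genes, on build mm10 per the submitters' processing notes. Which aligner and counter were used, and whether by strand, is not given in the sources used here, so reads of overlapping genes cannot be told apart.

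Counts were rounded to whole numbers, joined over 4 tables and fitted in 1 model of the 6 groups with edgeR 4.0.16 (R 4.3.3): filterByExpr, which kept 13048 genes and all 37 members, TMM scaling, and the quasi-likelihood F test with Benjamini-Hochberg adjustment over all genes tested. The common biological coefficient of variation was 20.0%. DESeq2 1.42.0 and limma 3.58.1, the second on the log2 values the authors deposited, served as alternatives beside other scalings, no filter, a GC and length correction, a replicate block and omission of each library. The fits were tested on simulated data. Members, gene lists and tests were chosen with earlier results of these data known. 1 member that is counted is not reported by name here. Called members and, whatever their p, Slc25a3, Slc25a4, Slc25a5, Slc25a11, Slc25a12, Slc25a20, Slc25a25, Slc25a30 and Slc25a33 are named. Values by library are given for those 9 or for up to 6 called members of smallest p in a comparison, and for further members where the text dwells on them. From each pathway list up to 3 called genes are named, with Ucp2, Ucp3, Mpc1 and Mpc2. Promoters came from RefSeq (GRCm38.p6).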

Additional observations from a re-analysis of the deposited data

Results flagged for a closer look

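Among 156 groups of 4 libraries, over the 26 Slc25 members examined, 8 held a library whose gap to its nearest neighbour exceeded the 95% limit of Dixon's outlier test, where chance gives about 1 in 20. Slc25a30 stood at 5.05 CPM in replicate 4 of diabetic mKO, where the other libraries held 2.02 to 2.42, and at 6.14 CPM in replicate 3 of control WT, where the others held 0.960 to 1.42. Slc25a42 stood at 10.8 CPM in replicate 1 of unloaded mKO, with the others at 15.9 to 16.9, and at 14.1 CPM in replicate 4 of control mKO, with the others at 18 to 18.2. Slc25a3 stood at 777.5 CPM in replicate 3 of control WT, against 595.5 to 615 in the other libraries of that group. Slc25a12 stood at 337 CPM in replicate 2 of diabetic mKO, against 369 to 375 in the others. Slc25a26 stood at 12.6 CPM in replicate 3 of diabetic WT, against 14.7 to 15.1, and Slc25a10 at 3.58 CPM in replicate 4 of unloaded WT, against 2.23 to 2.32.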

How the results depend on the processing

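Of 52 calls of a member in a comparison, 15 were kept in every setting run. In fits that left out 1 library, the number of members called changed by over 1.5 times at least once in several comparisons. These were mKO unloading, mKO diabetes, both contrasts of diabetes with unloading and the difference in unloading response. Among the other settings, such changes included the following. For mKO unloading, limma on the authors' log2 values called 0. For mKO diabetes, no filter, the replicate block, correction for GC content and length and both together each called 1, and a model of only the groups compared called 8. DESeq2 called 1 member in the difference of unloading response. Omission of 1 library gave 14 to 18 calls for WT unloading, 3 to 9 for mKO unloading, 12 to 17 for WT diabetes, 0 to 3 for mKO diabetes, 1 to 5 and 2 to 6 for diabetes against unloading in WT and mKO, 0 to 2 for the difference in unloading response and 0 to 0 in the other 4. Some values changed sign (log2 scale). With GC content and length corrected, WT unloading gave -0.0017 for Slc25a16, 0.0606 for Slc25a20 and 0.0572 for Slc25a33, and WT diabetes -0.1118 for Slc25a16, -0.0665 for Slc25a46 and 0.0533 for Slc25a33. With the replicate block as well, WT unloading gave 0.0635 for Slc25a20 and 0.0909 for Slc25a33, WT diabetes -0.1144 for Slc25a16, -0.0663 for Slc25a46 and 0.058 for Slc25a33, and mKO diabetes 0.0045 for Slc25a33. The block alone turned Slc25a30 in WT diabetes to 0.1025. Limma on the authors' values gave 0.0244 for Slc25a3, 0.0757 for Slc25a12, 0.2234 for Slc25a20 and 0.1354 for Slc25a33 in WT unloading, 0.0619 for Slc25a12 in mKO unloading, 0.022 for Slc25a4, 0.0158 for Slc25a3, 0.0035 for Slc25a12, 0.598 for Slc25a30 and 0.1172 for Slc25a33 in WT diabetes, and 0.0595 for Slc25a33 in mKO diabetes. Omission of 1 library took WT unloading from -0.0886 to 0.0475 for Slc25a20 and from -0.288 to 0.025 for Slc25a33, mKO unloading from -0.1194 to 0.0402 for Slc25a12 and from -0.1266 to 0.1633 for Slc25a33, WT diabetes from -0.3754 to 0.9263 for Slc25a30 and from -0.3107 to 0.036 for Slc25a33, and mKO diabetes from -0.1609 to 0.4486 for Slc25a25, from -0.7396 to 0.2139 for Slc25a30 and from -0.1515 to 0.0439 for Slc25a33. The cause of these changes was not tested. Deviations of same-numbered libraries from their group means correlated at -0.206 to 0.326, highest for replicate 3 of control mKO and control WT. Differently numbered libraries were not compared, so whether a replicate number marks a shared batch was not tested. Depth limits the low members, such as Slc25a13 and Slc25a45.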
